A study of Mus musculus with 12 samples.

Results

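Wild-type mouse forelimb buds from 2 neighbouring stages were compared by bulk RNA sequencing. These were 6 of the 12 libraries in the series, chosen by their labels alone. The earlier group (Tbx3_WT in the labels, n = 3) held wild-type buds of E9.75 to E10 (embryonic days after conception), at 28 to 31 somites, with no Cre driver named. The later group (Hand2_WT, n = 3) held buds of E10 to E10.25, at 31 to 33 somites, from embryos of genotype Prrx1-Cre;Hand2+/+. All embryos were Swiss albino, and each replicate was the pair of forelimb buds of 1 embryo. The remaining 6 libraries were mutants of the same 2 stages: Tbx3ΔVenus/ΔVenus buds (n = 3), in which a Venus reporter with a transcription stop sits at the start codon of Tbx3, and Prrx1-Cre;Hand2Δ/Δc buds (n = 3). Prrx1-Cre is active in limb bud mesenchyme, so the later wild-type mesenchyme carried the recombinase and the earlier group is not stated to. The stage windows touch at 31 somites, and no somite count is given for a single embryo. Stage, breeding colony, the Cre driver and sequencing depth therefore differed together between the groups and cannot be told apart.

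At these stages the forelimb bud is a small outgrowth of mesenchyme under ectoderm, with an apical ridge in the ectoderm that secretes fibroblast growth factors. Its posterior mesenchyme begins to express Shh, a secreted Hedgehog protein that is read through the receptor PTCH1 and the GLI factors. HAND2 and TBX3 are transcription factors of the posterior and early limb mesenchyme. Hox genes at the 3' end of each cluster are active before those at the 5' end, and the last paralogue groups of HoxA and HoxD mark the posterior and distal bud. Heat shock chaperones such as HSPA1A are induced when unfolded proteins release the factor HSF1, and immediate early genes such as Egr1 are switched on within minutes of a signal.

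The earlier libraries held 23.3 to 25.8 M expected counts and the later libraries 64.4 to 68.6 M (1 M is 1000000 counts). Tbx5, the forelimb T-box gene, was at 90.3 ± 3.35 CPM (counts per 1000000 of the library; mean ± SD, n = 3) in the earlier and 94.4 ± 5.56 CPM in the later buds. Pitx1 and Tbx4, which mark the hindlimb, were at 0.61 ± 0.251 and 2.49 ± 0.615 CPM in the earlier buds and at 0.948 ± 0.278 and 2.99 ± 0.649 CPM in the later buds. For Hand2 the levels were 108 ± 8.71 and 120 ± 3.58 CPM, a log2 fold change of 0.16 with an adjusted p of 0.229. Tbx3 was at 78.3 ± 0.954 and 82.8 ± 7.59 CPM (0.08, adjusted p = 0.564), and Prrx1 at 499 ± 23.5 and 557 ± 61.3 CPM (0.16, adjusted p = 0.358). In the Tbx3 mutants, scaled apart from the wild types, Tbx3 was still at 81.5, 80.2 and 74.0 CPM. None of the 3 genes that were targeted or lent a promoter in the series passed the test between the wild types. By sex-linked genes, the earlier embryos were 3 females and the later ones 2 females and 1 male (replicate 3).

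Of 16339 genes tested, 123 passed edgeR's quasi-likelihood test at an adjusted p under 0.05, or 0.753%. Of these, 58 were higher in the later buds (0.355%) and 65 lower (0.398%). Their median log2 fold changes were 0.63 and -0.60, and that of all genes tested was 0.00. Only 52 of the 123 changed at least 2-fold. All adjusted p-values come from this test unless another is named, and positive log2 fold changes are higher in the later buds. For 4000 genes (24.5%) the 3 libraries of one group lay wholly above those of the other, 1978 higher (12.1%) and 2022 lower (12.4%) in the later buds. The log2 fold change was above 0 for 48.9% of all genes tested and below 0 for 51.1%. The number of calls moved with each library: leaving out 1 of the 6 gave between 36 calls (without later replicate 3, the male) and 165 calls (without earlier replicate 3), and it left 59 or 77 without earlier replicate 1 or 2 and 69 or 52 without later replicate 1 or 2.

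On the first principal component, which held 38.2% of the variance, the earlier libraries scored -18.01, -19.12 and -8.68 and the later ones 10.65, 19.21 and 15.95. Earlier replicate 3 and later replicate 1 were thus the nearest of the 2 groups on this axis. The same libraries lay between the groups for limb patterning genes. Of 104 such genes tested, later replicate 1 fell within the range of the earlier libraries for 57 (54.8%), against 25 and 21 for later replicates 2 and 3. Earlier replicate 3 fell within the later range for 53 (51.0%), against 34 and 18 for earlier replicates 1 and 2. Over all 16339 genes the shares were closer, from 31.4% to 36.2% for the earlier and from 42.7% to 51.0% for the later libraries.

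Among the listed genes that passed the test, the largest changes were in heat shock genes. Of 9 tested, 3 rose in the later buds (Hspa1a, Hspa1b and Dnajb1), against 0.355% of all genes. The calls of Hspa1a and Hspa1b are not independent, because the genes share sequence. The lists were chosen with earlier results of these data known, so the count is not a test of the list. Log2 fold changes were above 0 for 8, and the median was 0.35. Hspa1a and Hspa1b encode the stress-inducible HSP70 and lie side by side on the minus strand of chromosome 17. Their sequence before the transcript start is shown because the pair moved together. Reads of 1 copy can be assigned to the other through shared transcript sequence, which these bases do not measure. The windows are the 250 bases before the start in RefSeq (GRCm38.p6), chr17:34972157-34972406 for Hspa1a and chr17:34959239-34959488 for Hspa1b, written 5′ to 3′ on the gene's strand. Capitals mark the letters GAANNTTC, a pair of inverted repeats of the heat shock element.
Hspa1a: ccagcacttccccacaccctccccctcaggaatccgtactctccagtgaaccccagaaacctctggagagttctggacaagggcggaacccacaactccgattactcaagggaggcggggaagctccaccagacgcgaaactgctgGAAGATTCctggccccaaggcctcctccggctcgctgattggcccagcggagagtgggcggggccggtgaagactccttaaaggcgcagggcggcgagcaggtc
Hspa1b: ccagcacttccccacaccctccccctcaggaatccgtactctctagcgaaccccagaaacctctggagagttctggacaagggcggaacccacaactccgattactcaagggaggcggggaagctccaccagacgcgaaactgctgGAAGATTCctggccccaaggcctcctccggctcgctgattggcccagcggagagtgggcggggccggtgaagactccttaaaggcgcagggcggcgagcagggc
The windows differ at 3 of 250 positions, and the marked letters end 96 bases before each start. Each motif searched, GAANNTTC and TTCNNGAA, is its own reverse complement, so 1 strand covers both, and they can overlap. GAANNTTC is found in 6.69% of 32851 such windows and TTCNNGAA in 7.17%. The windows listed for Dnajb1 hold neither set of letters.

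Hspa1a (ENSMUSG00000091971, chr17:34969190-34972156 in mm10) was at 1.20, 0.998 and 1.50 CPM in the earlier buds and at 6.31, 5.11 and 6.32 CPM in the later ones. Every later library was above every earlier one, 4.78-fold on average (log2 fold change 2.26, SE 0.187, adjusted p = 0.00415). This call was kept without each library in turn (adjusted p 0.00761 to 0.0225). Hspa1b (chr17:34956436-34959238) was at 2.18, 2.43 and 3.50 CPM, then at 13.3, 8.48 and 10.9 CPM, a 4.02-fold rise (2.01, SE 0.229, adjusted p = 0.0156). Its call was lost without earlier replicate 1 (adjusted p = 0.0578), earlier replicate 2 (0.0546) or later replicate 3 (0.0658), and in limma-voom (0.0561). The genes share 65.4% and 68.0% of their 31-base words, and their summed level was 3.93 ± 0.919 and 16.8 ± 3.05 CPM, a log2 ratio of 2.10. The pair was at a low level beside Hspa8, the constitutive HSP70, at 2400.1 to 2982 CPM in the earlier and 2625 to 3839 CPM in the later buds (0.35, adjusted p = 0.263).

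Dnajb1, the HSP40 partner of HSP70, was at 67.3, 71.9 and 81.5 CPM in the earlier and 105, 97.5 and 103 CPM in the later buds (chr8:83608193-83612653, log2 fold change 0.47, SE 0.071, adjusted p = 0.0409). Its groups did not overlap, but the call was lost without earlier replicate 1 (0.0809) or 2 (0.0953) or any 1 of the later libraries (0.0958, 0.0982 and 0.168 without replicates 1 to 3). Hsph1, a nucleotide exchange factor of HSP70, was at 283, 328 and 307 CPM and then 441, 358 and 435 CPM (0.43, adjusted p = 0.0871). The cytosolic HSP90 genes Hsp90aa1 and Hsp90ab1 had log2 fold changes of 0.17 and 0.04. The mitochondrial chaperonins Hspd1 and Hspe1 had 0.03 and -0.04. In the mutant buds of the same 2 stages, the later over earlier log2 fold change was 1.20 for Hspa1a (adjusted p = 0.149) and 0.98 for Hspa1b (adjusted p = 0.0804). The median of the 9 genes was -0.01, and 4 were called lower (11.7% of all genes there). Without the first Hand2-deficient library, in which 5.37% of the counts fell on a single gene, that median was 0.05, with 1 gene called lower and 1 called higher. The plot of called genes from the lists shows how far apart the 2 groups lay.

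**Figure D1:**
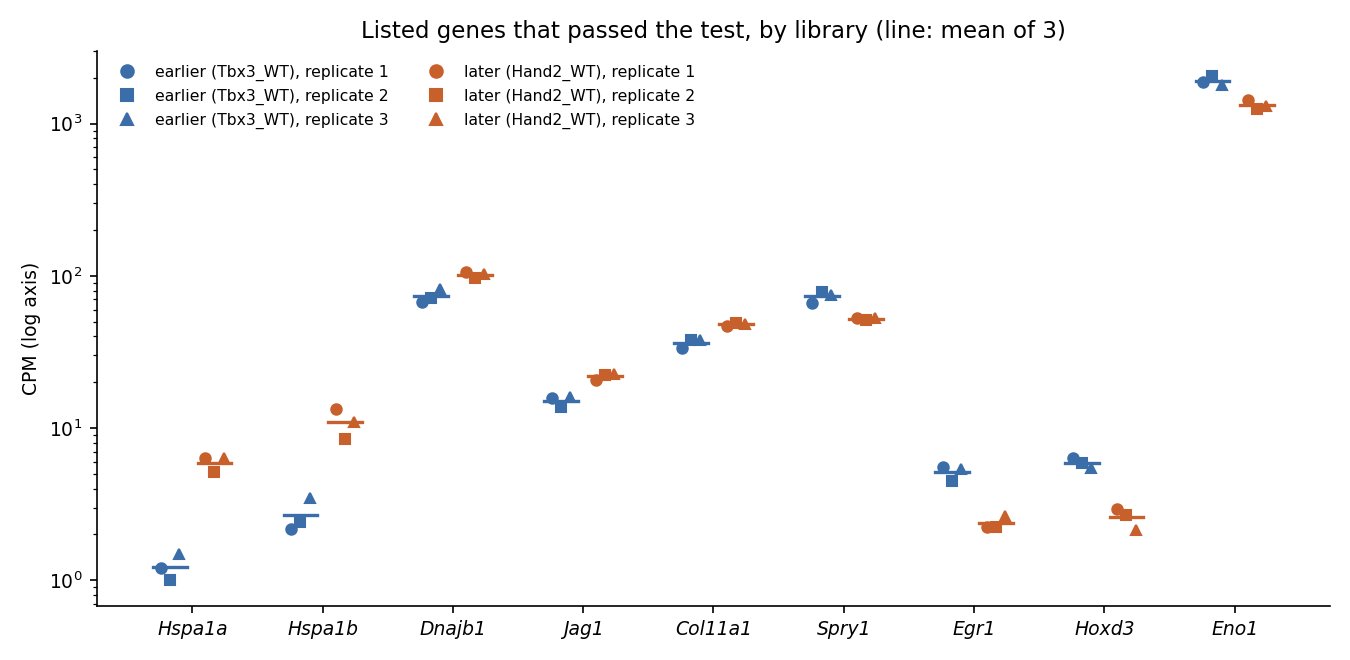
Level in CPM (log axis) of the listed genes that passed the test, 1 point per library, earlier (Tbx3_WT) and later (Hand2_WT) wild types, n = 3 each, with the mean as a line. The groups do not overlap in any of these genes, and Hspa1a and Hspa1b are the farthest apart.

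Hox genes of paralogue groups 1 to 8 had lower mean levels in the later buds, mostly in small steps. All 22 tested had log2 fold changes below 0, with a median of -0.48, while 51.1% of all genes tested were below 0. In 11 of the 22 every later library lay below every earlier one (12.4% of all genes), and 1, Hoxd3, fell past the test. Hoxd3 (chr2:74711927-74748442) was at 6.33, 5.86 and 5.45 CPM in the earlier and 2.93, 2.69 and 2.14 CPM in the later buds (-1.18, SE 0.155, adjusted p = 0.0248). The call was lost without earlier replicate 1 (0.0809) or 2 (0.0743) or later replicate 2 (0.0874) or 3 (0.0882). Hoxd3 shares 61.1% of its 31-base words with the overlapping gene Gm28230. Both lie on the plus strand, so strand use in counting, which is not given, could not separate their reads. The sum of both genes was 17.2 ± 2.33 and 11.8 ± 1.69 CPM (log2 ratio -0.54), a smaller step than that of Hoxd3 alone.

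Among the genes of groups 1 to 8 that did not pass the test, Hoxd8 was at 90.0, 99.5 and 87.9 CPM and then 71.8, 49.4 and 62.3 CPM (-0.60, adjusted p = 0.0867). Hoxb2 was at 31.7, 32.1 and 26.7 CPM and then 23.8, 17.3 and 16.4 CPM (-0.65, adjusted p = 0.0994). Hoxd4 was at 24.0, 19.8 and 29.0 CPM and then 16.8, 15.7 and 16.4 CPM (-0.58, adjusted p = 0.0948). In these 3 genes the groups did not overlap. The smallest differences were in HoxC, with -0.02 for Hoxc8 and -0.08 for Hoxc6. The direction held across 15 other settings of the analysis, with 21 or 22 of the 22 genes below 0 and a median from -0.56 to -0.34. The number called ranged from 0 to 7 across them.

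**Figure D2:**
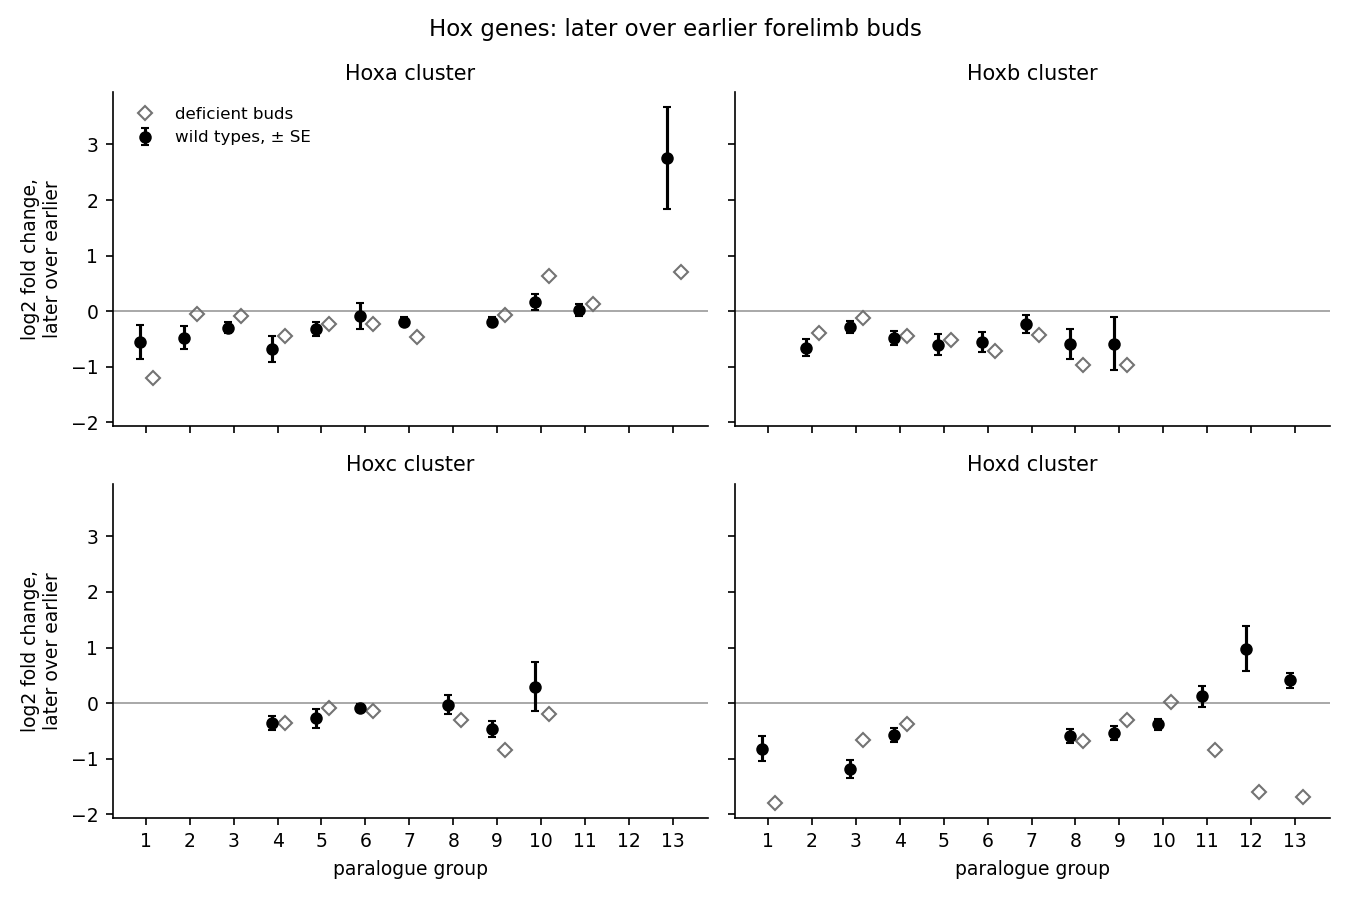
Log2 fold change (later over earlier wild types) of the 34 Hox genes tested, by cluster and paralogue group, with the standard error of the fit; open diamonds show the same contrast in the mutants. In the wild types groups 1 to 8 all lie below 0 and groups 11 to 13 all lie above 0; Hoxd3 is the only one that passed the test.

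Groups 9 and 10 were mixed, with 5 of 7 below 0 and a median of -0.38. Hoxd9 was at 211, 228 and 187 CPM and then 165, 117 and 148 CPM (-0.54, adjusted p = 0.0994), and Hoxd10 at 82.4, 97.0 and 81.1 CPM and then 68.2, 59.4 and 72.3 CPM (-0.38, adjusted p = 0.107). Groups 11 to 13 lay on the other side: all 5 tested genes were above 0, with a median of 0.41, none passed the test, and in none were the groups apart. Hoxa13, which marks the most distal bud, was at 0.257, 0.0434 and 0.461 CPM in the earlier and 0.345, 3.16 and 1.79 CPM in the later buds (2.76, SE 0.911, adjusted p = 0.185). Hoxd12 was at 8.38, 7.55 and 14.6 CPM and then 9.65, 27.4 and 23.3 CPM (0.98, adjusted p = 0.258), and Hoxd13 at 41.0, 39.6 and 46.2 CPM and then 45.5, 57.5 and 65.4 CPM (0.41, adjusted p = 0.171). In each of the 3, later replicate 1 was at the earlier level and replicates 2 and 3 were above it.

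The mutant libraries share no sample with the wild types but differ in the same stage, colony, Cre and depth, and in the gene targeted. There, 3621 of 16786 genes passed the test between the later and the earlier group (21.6%), 1653 higher (9.85%) and 1968 lower (11.7%), and 48.7% of all genes were below 0. With library totals in place of TMM scaling, 2881 were called and 57.8% of them were higher, against 45.7%. All 22 Hox genes of groups 1 to 8 were again below 0, with a median of -0.41, and 11 fell past the test (4 without the first Hand2-deficient library, with all 22 still below 0). Groups 11 to 13 were not on the same side there, with 3 of 5 below 0 and a median of -0.84. For Hoxd13 the change differed between the wild types and the mutants (difference 2.10 on the log2 scale in a fit of all 12 libraries, SE 0.418, adjusted p = 0.0335). A bulk sample cannot tell fewer cells of a type from less RNA per cell. Summed markers of body wall and coelomic lining, tissues next to the bud, ranged over 9.89 to 51.4 CPM in the earlier and 7.09 to 36.6 CPM in the later libraries (6 of 7 tested genes below 0, none called). Somite markers summed to 95.8 to 109 and 81.5 to 117 CPM (5 of 7 below 0, none called). Their part in the Hox values was not tested.

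Genes that respond to SHH were mostly higher in the later buds, with 1 call. Of 11 tested, 8 were above 0, 5 lay wholly above the earlier group (12.1% of all genes), 2 lay wholly below, and the median was 0.40. The same count of 8 above 0 was found in all 15 other settings. The summed level of the list was 280 to 304 CPM in the earlier and 316 to 368 CPM in the later libraries. Jag1, a NOTCH ligand (chr2:137081456-137116644), rose from 15.7, 13.8 and 15.9 CPM to 20.6, 22.4 and 22.6 CPM (0.53, SE 0.0812, adjusted p = 0.041). The call was lost without any 1 of the 6 libraries, with adjusted p of 0.0906, 0.0751 and 0.0515 without earlier replicates 1 to 3 and 0.0602, 0.133 and 0.168 without later replicates 1 to 3. It was also lost in limma-voom (adjusted p = 0.0541).

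Shh itself was at 5.17, 5.34 and 5.15 CPM in the earlier buds, a narrow range, and at 4.15, 9.99 and 7.40 CPM in the later ones (0.46, SE 0.288, adjusted p = 0.443). Later replicate 1 was below all earlier buds and the other two were above. The SHH receptor gene Ptch1, also a target, was at 102, 103 and 91.3 CPM and then 107, 119 and 117 CPM (0.21, adjusted p = 0.151). Gli1, a GLI activator induced by the pathway, was at 25.9, 25.2 and 26.7 CPM and then 29.0, 32.6 and 31.2 CPM (0.25, adjusted p = 0.119). In both genes the groups did not overlap, and DESeq2 called Gli1 (adjusted p = 0.0432). Against the direction of the list, Cyp1b1 was at 29.6, 24.9 and 22.0 CPM and then 25.3, 13.5 and 12.2 CPM (-0.59). In the mutants, where the later group lacks Hand2, all 11 genes were below 0 (48.7% of all genes there). Past the test fell 8 (11.7% of all genes there), or 6 without the first Hand2-deficient library. The change differed from that of the wild types for 5 of the 11 (1.68% of all genes), among them Gli1, Ptch1, Jag1 and Hoxd13.

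**Figure D3:**
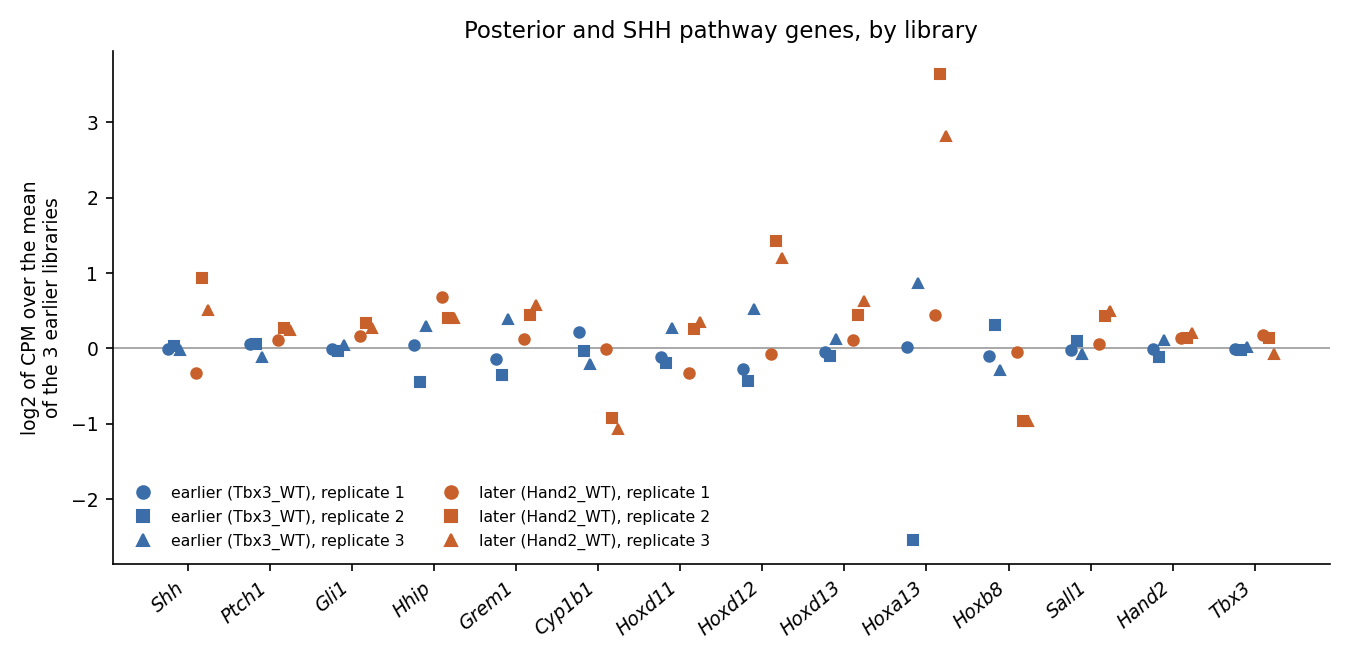
Posterior and SHH-related genes in each of the 6 wild-type libraries, as log2 of CPM relative to the mean of the earlier group. Later replicate 1 lies within the earlier range for Hoxd12, Hoxd13 and Hoxa13 and below it for Shh.

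The wider patterning lists held no call. Of 13 genes of the posterior bud, 10 were above 0 with a median of 0.13 and none passed the test. Of 11 anterior genes, 7 were below 0 with a median of -0.13, and none passed; Irx3, an Iroquois gene of the anterior and proximal bud, was at 147, 124 and 118 CPM and then 107, 99.2 and 103 CPM (-0.33, adjusted p = 0.114). Of 13 apical ridge genes, 8 were below 0 with a median of -0.10. Fgf8, the ridge growth factor, was at 48.1, 49.5 and 52.4 CPM and then 36.8, 47.6 and 46.6 CPM (-0.20, adjusted p = 0.349). Of 18 early limb mesenchyme genes, 10 were below 0 and 8 above, with a median of -0.01. Lhx2, a homeobox gene needed for outgrowth, was at 248, 263 and 228 CPM and then 190, 155 and 200 CPM (-0.44, adjusted p = 0.0948). Twist1 was at 376, 364 and 366 CPM and then 321, 305 and 333 CPM (-0.21, adjusted p = 0.0994). The groups of both genes were apart without passing the test. The proximal gene Meis2 was at 204, 176 and 163 CPM and then 178, 163 and 149 CPM (-0.15).

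Of 13 NOTCH genes, Jag1 rose (0.355% of all genes), 10 were above 0 and the median was 0.21. Wholly above the earlier group lay 4 (12.1% of all genes). Besides Jag1 these were Hey1, a NOTCH target, at 25.7, 20.6 and 21.8 CPM and then 27.3, 34.3 and 33.6 CPM (0.48, adjusted p = 0.105), and the receptors Notch3 (0.24, adjusted p = 0.126) and Notch2 (0.25, adjusted p = 0.151). Of 13 genes of FGF signalling, 1 fell (0.398% of all genes). Spry1, an inhibitor that FGF signalling induces, was at 66.7, 78.0 and 74.9 CPM and then 52.7, 51.1 and 52.5 CPM (-0.49, SE 0.0607, adjusted p = 0.0209). Its call was lost without earlier replicate 2 (0.0546) or 3 (0.0501) or later replicate 1 (0.0629), 2 (0.0813) or 3 (0.111). Other FGF response genes moved less: Spry4 had -0.04, Etv4 -0.18, Etv5 -0.12 and Dusp6 -0.23, with groups that overlapped. The median of the FGF list was -0.04.

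Of 12 early cartilage genes tested, 1 rose (0.355% of all genes) and 10 were above 0, with a median of 0.17. Col11a1, a fibrillar collagen of cartilage, was at 33.5, 37.7 and 38.0 CPM and then 47.2, 48.7 and 48.6 CPM (0.40, SE 0.0607, adjusted p = 0.04). The call was lost without any 1 library (0.0679, 0.0743 and 0.0517 without earlier and 0.0837, 0.116 and 0.167 without later replicates 1 to 3). In the mutants Col11a1 rose too (0.64, adjusted p = 0.00202). Sox5, a partner of SOX9 in cartilage, was at 14.5 to 17.5 CPM in the earlier and 19.97 to 26.2 CPM in the later buds (0.55, adjusted p = 0.0908). Sox9 was at 61.0, 49.4 and 52.9 CPM and then 49.6, 69.3 and 77.5 CPM (0.27, adjusted p = 0.418), with later replicate 1 again at the earlier level. Of 18 matrix genes, 14 were above 0 with a median of 0.19 and none passed; their sum was 2806 to 3034 CPM in the earlier and 3231 to 3366 CPM in the later libraries. Vcan, the proteoglycan versican, was at 228, 259 and 276 CPM and then 333, 342 and 326 CPM (0.39, adjusted p = 0.0636).

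Immediate early genes were on the lower side. Of 11 tested, 1 fell (0.398% of all genes) and 8 were below 0, with a median of -0.18. In 6 every later library lay below every earlier one (12.4% of all genes). Egr1 was at 5.52, 4.51 and 5.42 CPM and then 2.22, 2.23 and 2.66 CPM (-1.12, SE 0.148, adjusted p = 0.0248). Its groups were far apart, but the call was lost without earlier replicate 1 (0.0809) or 3 (0.056) or later replicate 1 (0.0758), 2 (0.0982) or 3 (0.0842). Junb was at 11.8, 16.6 and 11.4 CPM and then 9.66, 8.90 and 9.43 CPM (-0.51, adjusted p = 0.148). Fos was under 1 CPM in every library (-0.10).

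Of 17 genes of hypoxia and glycolysis, 1 fell (0.398% of all genes) and 13 were below 0, with a median of -0.15. Wholly below the earlier group lay 7 (12.4% of all genes). Eno1, the glycolytic enolase, was at 1890, 2056 and 1797 CPM and then 1434, 1254 and 1314 CPM (-0.52, SE 0.0701, adjusted p = 0.0257). That call was lost without earlier replicate 1 (0.0828) or 2 (0.072) or later replicate 2 (0.0778) or 3 (0.13). Eno1 shares sequence with copies, and the sum of Eno1, Eno1b and the pseudogene Gm4735 was 2497 ± 171 and 2268 ± 145 CPM (log2 ratio -0.14). Pgk1, phosphoglycerate kinase, had -0.35 (adjusted p = 0.0566) and Ldha, lactate dehydrogenase, -0.37 (adjusted p = 0.0994), with groups apart in both. In the mutants all 17 genes fell past the test (11.7% of all genes there), with a median of -1.18 (-1.14 and all 17 without the first Hand2-deficient library). The change differed from that of the wild types for 12 of the 17 (1.68% of all genes).

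**Figure D4:**
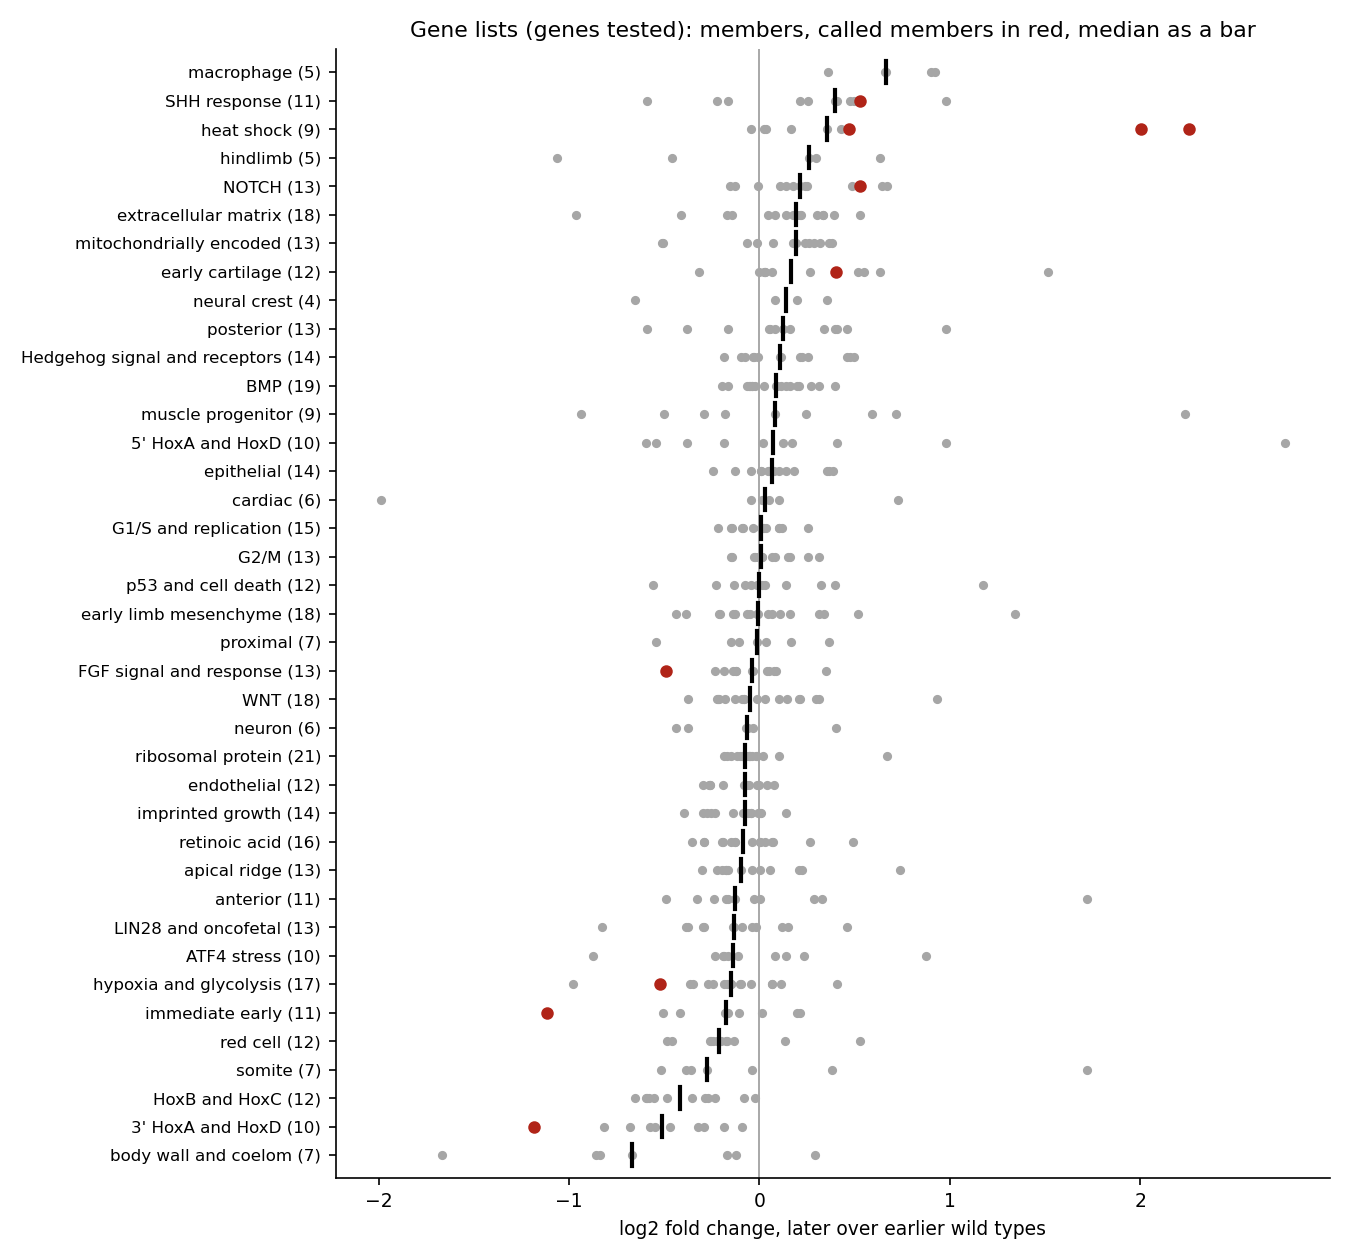
Log2 fold change (later over earlier wild types) of every tested member of the 39 lists with at least 4 tested members, 1 point per gene, called genes in red and the median as a bar. The heat shock list holds 3 of the called genes, and most lists centre near 0.

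The other lists held no call. Of 21 ribosomal protein genes 18 were below 0, by a small median of -0.07, and 13 lay wholly below the earlier group (12.4% of all genes). All ribosomal protein genes together held 6.46 ± 0.108% of the counts in the earlier and 6.12 ± 0.017% in the later libraries. Of 19 BMP genes 11 were above 0 with a median of 0.09, and Bmpr2, a BMP receptor, was at 86.5, 96.0 and 85.3 CPM and then 102, 112 and 109 CPM (0.27, adjusted p = 0.0876). Of 13 genes of the LIN28 and oncofetal list, 10 were below 0; Lin28a, an RNA-binding protein of early embryonic cells, was at 205, 250 and 176 CPM and then 173, 75.2 and 108 CPM (-0.82, adjusted p = 0.192). The replication and mitosis lists had medians of 0.01 each. Of 14 imprinted growth genes 11 were below 0, with a median of -0.08, and their sum lay apart, at 18469 to 18788 CPM in the earlier and 17453 to 17500 CPM in the later libraries. In all, the 40 lists held 471 genes, of which 440 were tested, 5 rose and 4 fell. In 124 of the 440 (28.2%) the groups did not overlap, close to the 24.5% of all genes.

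Markers of other cells that a dissected bud can hold gave no call either. Red cell markers summed to 3330 to 5416 CPM in the earlier and 2830 to 4623 CPM in the later libraries (10 of 12 below 0). Endothelial markers summed to 398 to 441 and 390 to 393 CPM, and epithelial markers to 358 to 373 and 368 to 392 CPM (11 of 14 above 0). Of 10 macrophage markers 5 were tested, all above 0, with sums of 2.39 to 5.53 and 5.35 to 8.57 CPM over the list. Muscle progenitor markers summed to 179 to 190 and 153 to 188 CPM. Among them Lbx1, which marks the precursors that migrate into the limb, was at 53.1, 61.6 and 54.2 CPM and then 43.4, 35.5 and 40.5 CPM (-0.50, adjusted p = 0.06). Neural crest markers summed to 46.5 to 54.2 and 33.2 to 45.0 CPM, and neuron markers to 60.1 to 77.7 and 73.6 to 79.2 CPM, with Neurod1 at 0 in all 6. Cardiac markers summed to 3.92 to 25.6 and 2.71 to 22.9 CPM. Hindlimb markers summed to 8.89 to 10.8 and 8.49 to 8.83 CPM, but 3 of 5 tested were above 0, with a median of 0.26. Hoxc9, a Hox gene of that list, was at 5.21 ± 0.40 and then 3.79 ± 0.56 CPM. The means of Pitx1 and Tbx4 were higher in the later buds. Of these and the body wall and somite sums, the neural crest, hindlimb and endothelial sums lay wholly lower in the later group, and no marker of another cell type passed the test. Their part in the results was not tested.

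Among single genes outside the lists was Timm10b, whose protein belongs to the import machinery of the mitochondrial inner membrane. It had the smallest adjusted p among the 12 rises and 12 falls named for their size. It fell from 24.7, 25.3 and 24.0 CPM to 13.3, 12.3 and 13.5 CPM (chr7:105640056-105643637, -0.92, SE 0.0677, adjusted p = 0.00212). The Golgi transporter gene Slc35b2 fell from 56.1, 64.0 and 61.2 CPM to 40.1, 39.1 and 38.2 CPM (-0.63, SE 0.058, adjusted p = 0.00653). Both calls were kept without each library in turn. Ptgis, prostacyclin synthase, fell from 41.6, 41.8 and 37.1 CPM to 25.9, 18.9 and 25.6 CPM (-0.78, adjusted p = 0.0473), a call lost without any 1 library other than later replicate 2 (adjusted p 0.0647 to 0.13) and in limma-voom (0.0607). Gem, a small GTP-binding protein, fell from 5.27 ± 1.55 to 2.01 ± 0.276 CPM (-1.39, adjusted p = 0.0496), and that call was lost without any 1 of the 6 (0.0587 to 0.168) and in limma-voom (0.0548).

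Ccdc43 and Gjc1 are neighbours on chromosome 11 and rose together. Ccdc43 (chr11:102684686-102697782) was at 44.4, 45.2 and 44.9 CPM and then 70.6, 88.8 and 69.8 CPM (0.77, SE 0.0934, adjusted p = 0.0197); the call was lost without earlier replicate 1 (0.0708) or 2 (0.0638). Gjc1 (chr11:102799579-102819700), which encodes the gap junction protein connexin 45, was at 112, 113 and 121 CPM and then 166, 227 and 179 CPM (0.73, SE 0.111, adjusted p = 0.041). It lost the call without any 1 of the earlier libraries (0.125, 0.102 and 0.0699) or without later replicate 3 (0.124), and in limma-voom (0.0546). In both genes later replicate 2 was the highest. In the mutants neither passed the test, with log2 fold changes of -0.10 (adjusted p = 0.476) and 0.06 (adjusted p = 0.356). Of the 123 called genes, 39 lay within 1 Mb of another, in 17 clusters. The matching share of all genes tested was not computed, so the count cannot be read as clustering. Some clusters hold genes that share sequence, such as Rn7s1 with Rn7s2 and Hspa1a with Hspa1b, and their calls are not independent. The largest cluster held 5 genes on chromosome 4 with mixed directions, named here after their values were seen: Gm13241, Zfp991 and Fbxo44 fell, and Zfp985 and Masp2 rose.

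Many of the largest differences fell on genes that share sequence. Genes with at least 20% of their 31-base words in another gene were 12.5% of the genes tested, 45 of the 123 called (36.6%) and 36 of the 52 called at 2-fold or more (69.2%). Processed and other pseudogenes were 5.66% of the genes tested, 15.45% of those called and 34.6% of those called at 2-fold or more. Rpl35a-ps2, Rpl35a-ps3, Rpl35a-ps4, Rpl35a-ps6 and Gm10243 had identical values, 0.479 CPM in the earlier and 21.1 CPM in the later buds (5.44, adjusted p = 1.05e-06), so they are 1 measurement. Their parent Rpl35a fell from 340, 367 and 393 CPM to 244, 237 and 250 CPM (-0.59, adjusted p = 0.0094, but 0.0792 in a fit of all 12 libraries). The signal recognition particle RNA genes Rn7s1 and Rn7s2 also shared their values, 2.90 CPM in the earlier and 10.2 CPM in the later buds.

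Summing the genes that share words removed some of these changes and kept others. Rpl26, a ribosomal protein gene, was at 345, 558 and 371 CPM and then 156, 149 and 153 CPM (-1.48, adjusted p = 0.0155), while its copy Gm15772 was at 193, 1.08 and 200 CPM and then 378, 364 and 369 CPM. The call of Rpl26 was lost without any 1 of the later libraries (adjusted p = 0.0513, 0.0719 and 0.081 without replicates 1 to 3). The sum of both genes was 556 ± 16.6 and 523 ± 10.3 CPM, a log2 ratio of -0.09. The same held for Ahcy, which fell on its own (-0.60, adjusted p = 0.00517, but 0.132 in a fit of all 12 libraries) and summed with its copies Gm4737 and Gm9826 to 620 ± 12.6 and 651 ± 30.6 CPM (0.07). Its copy Gm4737 rose on its own, from 204 ± 5.98 to 378 ± 15.1 CPM (0.89, adjusted p = 0.000346). Among the sums whose log2 ratio stayed away from 0 were those of Ppp1r14b (-0.27), the Hspa1a pair (2.10) and Rbm12b2 with Rbm12b1 (0.60). So were those of Dynlt1b with its 4 copies (1.01, from 89.2 ± 11.2 to 179 ± 8.00 CPM) and Zfp991 with its 3 partners (-1.26). For Rn7s1 and Rn7s2 (1.81) and Cdc34 (-0.30) the sum could hardly differ from the gene alone. Rn7s1 and Rn7s2 had identical values, and their other partners were near 0 CPM. Cdc34 was at 197.09 CPM alone and 197.13 CPM in the sum in the earlier buds. The calls of Rn7s1 and Rn7s2 were lost without any 1 library other than earlier replicate 3 (0.0708 to 0.147). They were also lost in the fit of all 12 libraries (0.309). Dynlt1b encodes a light chain of the dynein motor and was itself at 32.2, 26.4 and 13.7 CPM and then 86.6, 97.1 and 89.0 CPM (1.92, adjusted p = 0.025), a call lost without earlier replicate 2 (0.0774) or later replicate 1 (0.0602), 2 (0.0901) or 3 (0.108).

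**Figure D5:**
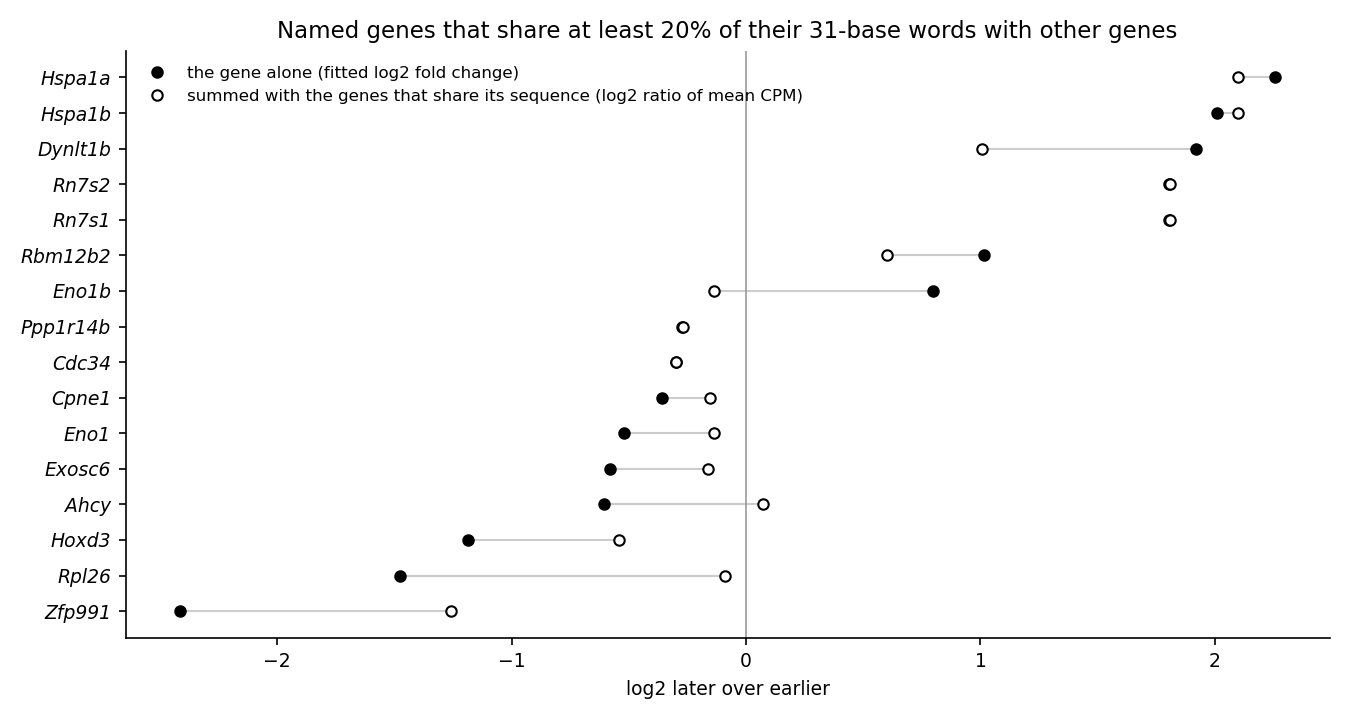
Log2 ratio of later over earlier wild types for 16 called genes that share sequence, for the gene alone and for the sum with the genes that share its words. Rpl26, Ahcy, Eno1 and Eno1b come near 0 in the sum, and the Hspa1a pair does not.

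Gene length and base composition moved with the comparison. Across 9820 genes of at least 5 CPM that share under 20% of their words, the log2 fold change had a Spearman correlation of 0.341 with the length of the longest transcript and -0.234 with GC content; the genes share the same 6 libraries and are not independent. In the 2455 shortest of these genes the median log2 fold change was -0.06 and 30.5% were above 0. In the 2455 longest it was 0.07 and 70.7% were above 0, and 21 of their 22 called genes were higher. Among tested genes that share under 20% of their words, the 38 called higher had a median longest transcript of 5672 bases and the 40 called lower 2736 bases, against 3392 for all 14272. None of the values above was adjusted for length, and the part of length and depth in them was not tested. Of 380 tested genes with a Zfp symbol, 256 were above 0, 5 rose and 1 fell, with a median of 0.08, beside 48.9% above 0, 0.355% higher and 0.398% lower among all genes tested.

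Of the 123 genes called in the wild types, 115 were also tested in the mutants, where 99 had a log2 fold change of the same sign and 48 passed the test on the same side. Of all genes tested in the mutants, 9.85% were called higher and 11.7% lower. The share of all genes with the same sign in both comparisons was not computed, so the count of 99 has no baseline. Only Jag1 passed on the opposite side (-0.43, adjusted p = 0.0249). Of the 75 that share under 20% of their words, 68 had the same sign and 36 passed on the same side; of the 40 that share more, 31 had the same sign and 12 passed. The difference between the wild-type and mutant changes was called for 292 of 17360 genes (1.68%). These comparisons share the stage, colony, Cre and depth difference, so the values cannot tell these apart.

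Ranked by mean CPM over the 6 wild-type libraries, the most abundant transcripts were Eef1a1, the translation elongation factor, at 9102 CPM, the imprinted noncoding RNA H19 at 5313, Hsp90ab1 at 4378, Ptma at 3929, the imprinted growth factor Igf2 at 3453, mt-Co1 at 3366, Mest at 3276, Hspa8 at 3022, Actg1 at 2932 and Pkm at 2909 CPM. Together these 10 held 4.17% of the counts, the top 100 held 16.95%, and 1008 genes held 50% of all counts. Levels between genes are comparable only per length. On the scale of CPM per kb of exon, Eef1a1 was first at 3651, followed by Ptma at 2687, mt-Co1 at 2179, Rplp1 at 2170 and H19 at 2160, and the embryonic globin Hbb-y reached 1890. Globins, which come from red cells, held 0.385 ± 0.114% of the counts in the earlier and 0.336 ± 0.091% in the later libraries. A mean of at least 1 CPM was reached by 13324 genes, and 12602 did so in all 6 libraries.

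Among the 104 patterning genes, 102 reached 1 CPM. Per kb of exon, the mesenchymal factor Twist1 stood highest at 211 CPM per kb, then Asb4 at 169, Gas1, a SHH co-receptor, at 116, Hoxd9 at 82.4, Prrx2 at 73.8 and Msx1 at 71.9. Hand2 was at 48.4 and Prrx1 at 47.7, close to each other. Tbx5 was at 19.7 and Tbx3 at 12.2. Shh, which only the posterior mesenchyme makes, was at 2.18, Hoxa13 at 0.409, and Pax9 was lowest at 0.0585 CPM per kb. Hand2 and Shh thus differed by more than an order of magnitude in the whole bud.

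The spread between replicates was measured after all libraries were thinned to the same 23311649 counts. Over 10719 genes of at least 5 CPM, the median absolute log2 difference was 0.0859 to 0.102 between earlier libraries, 0.0699 to 0.0904 between later ones and 0.0958 to 0.136 between the groups. The between-group range overlaps that of the earlier pairs and lies wholly above that of the later pairs. The median SD per gene was 0.0832 in the earlier and 0.0681 in the later group, and 6280 of the 10719 genes had the larger SD in the earlier group. The genes that varied most within a group included Nr1h5, at 18.8, 0 and 27.5 CPM in the earlier buds and 0 in all later ones, and Pde1c, at 0.770, 0.954 and 0.768 CPM in the earlier and 26.8, 22.8 and 0.703 CPM in the later buds.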

How the data were processed

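The values are the authors' deposited RSEM expected counts per gene. Per the submitters' processing notes reads were checked with FastQC 0.11.4, and RSEM 1.3.0 and STAR 2.5.2 were run with the mm10 genome. Strand use, litters and preparation days are not stated in these sources. Per the labels' protocols, RNA of RIN 8.0 or more was made into Clontech SMARTer libraries and read as 85 bp single ends. RSEM shares out reads that fit several genes, and 12.5 to 15.8% of all values in the wild types were not whole.

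Expected counts were rounded and genes with low counts were removed with filterByExpr (minimum count 10, minimum total 15). The groups were compared in edgeR 4.0.16 (R 4.3.3) with TMM scaling and the quasi-likelihood test on the wild types alone, with Benjamini-Hochberg adjustment over all genes tested and calls at 0.05. CPM are TMM-scaled. The script was tested on simulated data. Replicates are separate embryos, so p-values measure the spread between these embryos. Depth was 23.3 to 68.6 M counts (1 M is 1000000), and thinning of the later libraries was among the alternatives, with DESeq2 1.42.0, limma 3.58.1, other scaling and filters, a replicate block and leaving out each library. Sequence sharing was counted as 31-base words of each gene found in another gene.

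The libraries, gene lists and tests were chosen with earlier results of these data known. Named genes are the called ones with the strongest change, 12 in each direction, if their symbol is curated, their groups did not overlap and the mean of the higher group was 5 CPM or more; the 10 most abundant genes by CPM and per kb; members of the lists; and Hand2, Tbx3 and Prrx1. Replicate numbers did not pair the wild types. Sex was not used as a covariate there. All earlier embryos were female and only later replicate 3 was male, so a sex term would rest on that library alone. Without that library 36 genes were called, of which 32 were also called in the main fit. Without a symbol in the reference were 105 of 53465 genes. The values of 1 listed gene are not reported here.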

Additional observations from a re-analysis of the deposited data

Results flagged for a closer look

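The later over earlier change differed between the wild types and the mutants for 15 genes given here, by the interaction in edgeR's quasi-likelihood fit of all 12 libraries. They were taken from the patterning lists and the called named genes and are not all the listed genes that differed. In the hypoxia and glycolysis list 12 of 17 differed, against 1.68% of all genes. The values are the wild-type log2 change minus the mutant one, and the mutants differ from the wild types in the gene targeted at each stage. Among the 15 the difference was largest for Hand2 at 6.55 (SE 0.579, adjusted p = 0.000435), the gene deleted in the later mutants. Posterior and SHH genes followed: Shh at 3.64 (adjusted p = 0.0472), Hoxd13 at 2.10 (adjusted p = 0.0335), Gli1 at 1.70 (adjusted p = 0.0244), Ptch1 at 1.25 (adjusted p = 0.00235), Jag1 at 0.97 (adjusted p = 0.00688), Sall1 at 0.90 (adjusted p = 0.0244) and Ets2 at 0.42 (adjusted p = 0.0332). Fgf9, a growth factor of the apical ridge, stood at 1.68 (adjusted p = 0.0167).

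In the other direction were Lhx2 at -0.74 (adjusted p = 0.0485), Prrx2 at -0.71 (adjusted p = 0.00994) and Asb4 at -0.67 (adjusted p = 0.0486). Prrx2 had a log2 change of -0.14 in the wild types and 0.58 in the mutants, and Lhx2 of -0.44 and 0.31. Among the genes called in the wild types, Ccdc43 stood at 0.87 (adjusted p = 0.0143), its neighbour Gjc1 at 0.67 (adjusted p = 0.0309) and Timm10b at -0.50 (adjusted p = 0.0279).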

How the results depend on the processing

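The count of 123 called genes moved by more than 1.5 times with DESeq2 (885), with no filter on low counts (326) and in a fit of all 12 libraries (360), and with 1 library left out it ranged from 36 to 165. Of the 123, DESeq2 shared 110. Other scalings, limma-voom, a minimum count of 50 and thinning gave 92 to 152. The count at 2-fold or more was 52 and became 85 with DESeq2 and 97 with no filter, and ranged from 27 to 57 with 1 library left out. A replicate block gave 31 calls and 24 at 2-fold or more, but the replicate numbers do not pair the embryos (correlations of same-numbered embryos 0.121, -0.291 and -0.056). In the mutants the count of 3621 was 1868 or 1620 without Tbx3_del replicate 2 or 3, 1779 or 1624 without Hand2_del replicate 1 or 3, at most 3548 with any 1 left out, and 3751 with the replicate block. The top 100 by CPM shared 98 to 100 genes across settings. Of 28 named or listed called genes, 7 kept the call without each library in turn: Hspa1a, Rbm12b2, Eno1b, Timm10b, Slc35b2, Ahcy and Rpl35a. Of these 7, 3 lost it in the fit of all 12 libraries: Eno1b (adjusted p = 0.638), Ahcy (0.132) and Rpl35a (0.0792). None of the 28 changed sign in any setting run. Their selection all but fixed this, because each was called and its groups did not overlap. The cause of these moves was not tested.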
